A study of Mus musculus with 30 samples.

Results

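The genes described here are 10 genes of the fat cell: Adipoq, Fabp4, Plin1, Plin4, Cfd, Cidec, Retn, Lep, Lpl and Pparg. They were matched by gene name and gene ID, and all 10 were found among the 46078 genes of the count table. Their RNA was measured in 30 colon libraries of C57BL/6J mice, in 5 groups of 6 biological replicates: control diet females (CD F), control diet males (CD M), high-fat diet females (HFD F), high-fat diet males (HFD M) and high-fat diet males given estradiol (HFD+E2 M). The mice were obtained at 5 to 6 weeks of age and kept for 13 weeks on a diet with 10% (CD) or 60% (HFD) of its energy from fat. During the final 3 weeks all of them received 9 intraperitoneal injections, of vehicle in the first 4 groups and of 0.5 mg/kg estradiol (E2) in HFD+E2 M. The females kept their ovaries, and no estradiol-treated females were analysed here. RNA came from frozen colon tissue (distal colon in the methods of the study) and not from sorted cells. The labels give no sequencing batch.

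White fat cells store triglyceride in a single large lipid droplet and also act as an endocrine cell. The nuclear receptor Pparg drives their differentiation. Perilipins (Plin1, Plin4) and Cidec coat or enlarge the droplet, lipoprotein lipase (Lpl) frees fatty acids from circulating lipoproteins and Fabp4 carries fatty acids inside the cell, while adiponectin (Adipoq), leptin (Lep), resistin (Retn) and adipsin (Cfd, complement factor D) are secreted. The mesentery that carries vessels to the colon is rich in such cells. Several of the same genes also have homes outside fat: Pparg is well known in colon epithelium, Fabp4 in capillary endothelium and Lpl in muscle and macrophages, whereas Adipoq and Lep are close to specific to adipocytes.

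The promoter is shown for 3 genes, since Adipoq and Lep turned out to vary together and Pparg did not follow them. The sequences are from RefSeq (GRCm38.p6) and run 5′ to 3′ over the 250 bases before the transcription start: chr16:23146286-23146535 (plus strand) for Adipoq, chr6:29059971-29060220 (plus strand) for Lep and chr6:115421816-115422065 (plus strand) for the most downstream of 3 annotated Pparg starts. Capitals mark matches, on either strand, to any of 4 short motifs. The first is the box named for its letters CCAAT, common near transcription starts. The second is the box at which the general transcription machinery assembles, searched as TATAAA and, as an alternative ending, with the last letter replaced by G. The third is TTGCGCAA, the palindrome bound by C/EBP factors, which act with Pparg in adipocyte differentiation. The fourth is AGGTCA, the half-site of nuclear receptors.
Adipoq: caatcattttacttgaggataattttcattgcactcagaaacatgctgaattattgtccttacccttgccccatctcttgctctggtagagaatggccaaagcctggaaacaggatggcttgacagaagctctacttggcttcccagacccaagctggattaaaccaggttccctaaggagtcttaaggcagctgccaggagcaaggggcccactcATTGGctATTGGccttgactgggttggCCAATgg
Lep: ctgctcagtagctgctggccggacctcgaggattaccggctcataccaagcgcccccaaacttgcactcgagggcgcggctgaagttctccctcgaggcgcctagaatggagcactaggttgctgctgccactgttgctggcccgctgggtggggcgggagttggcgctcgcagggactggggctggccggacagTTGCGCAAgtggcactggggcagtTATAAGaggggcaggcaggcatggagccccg
Pparg: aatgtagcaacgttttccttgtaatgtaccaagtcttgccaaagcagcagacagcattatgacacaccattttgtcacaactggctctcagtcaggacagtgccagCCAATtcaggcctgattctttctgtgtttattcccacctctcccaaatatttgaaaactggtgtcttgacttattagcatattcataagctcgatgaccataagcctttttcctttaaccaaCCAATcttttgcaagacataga
RefSeq held promoter windows for 8 of the 10 genes, 11 windows of 300 bases (250 before and 50 after the start), with none for Fabp4 and Lpl. The C/EBP palindrome occurred in 1 of the 11, that of Lep, and in 0.183% of the 32851 promoters of the same length. The AGGTCA half-site occurred in 2 windows, both of Pparg, against 16.3% of all promoters, and a pair of half-sites 1 base apart, the element bound by Pparg with its partner Rxr, occurred in 0 of the 11 against 0.04% of all. A CCAAT box was present in 4 windows (Adipoq, Plin4 and 2 of Pparg) against 37.4%, and a TATA box in 3 (Lep, Plin4 and 1 of Pparg) against 18.8%. The Pparg window shown holds neither the AGGTCA half-site nor the TATA box counted here for Pparg. Its counts are of the whole gene, so the starts are not told apart. These letter matches are descriptions of the windows and not evidence of binding. Whether they bear on which genes vary together was not tested.

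Each library held 8667177 to 17243712 counts on genes, with a median of 11530916, and 26.1% to 37.99% of them were on mitochondrial genes. Against this depth the fat cell genes were scarce. Adipoq, the best single marker of adipocytes on the list, had 0 to 47 counts per library, or 544 in all 30 libraries together. Lep had 0 to 56 counts, Plin1 0 to 26, Retn 0 to 23, Cidec 3 to 47 and Cfd 3 to 143. Fabp4 (47 to 264 counts) and Lpl (71 to 228) were intermediate, and Plin4 (151 to 528) and Pparg (189 to 427) were well covered. Muc2, the goblet cell mucin, averaged 2205 CPM (counts scaled to the library total) over the libraries and Adipoq 1.58.

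Some high-fat diet libraries stood apart by genes of other tissues. Markers of squamous epithelium, which lines the anal canal and skin, summed to 0.84 to 14.6 CPM in 24 libraries, but to 1375, 1406, 1138 and 268.2 CPM in HFD F 1, 3, 4 and 5 and to 327.4 and 103.7 CPM in HFD M 2 and 4. Skeletal muscle markers summed to 10.57 to 257 CPM, with the highest values in HFD M 2 (257), HFD F 3 (207.1), CD M 5 (164.8) and HFD F 1 (144.7). The fits were therefore repeated without the 6 libraries over 100 CPM of squamous markers, a limit chosen after the data were seen, which left 2 HFD F and 4 HFD M libraries. The values of those smaller fits are given beside the results that they changed. The part of these tissues in the results was not tested further.

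On the scale that corrects for gene length as well as depth (TPM), the order of the median levels was Pparg (16.9), Fabp4 (10.6), Plin4 (8.94), Cfd (4.67), Lpl (3.44), Adipoq (1.54), Cidec (0.975), Retn (0.545), Lep (0.223) and Plin1 (0.151). The ranges over libraries of each pair of neighbours in this order overlapped. Pparg spanned 10.2 to 27.5 TPM and Adipoq 0 to 4.27 TPM. Thus the receptor had the highest median of the 10, and the hormone that marks the mature fat cell stood below 5 of the others. In bulk tissue, fewer cells of a type and less RNA per cell cannot be told apart.

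All 10 are protein-coding genes, and their positions are given on GRCm38 as in the deposited abundance tables. Adipoq (ENSMUSG00000022878) lies at chr16:23146536-23158028, Lep (ENSMUSG00000059201) at chr6:29060220-29073877, Retn (ENSMUSG00000012705) at chr8:3655770-3660110 and Cfd (ENSMUSG00000061780) at chr10:79890853-79892656, all on the plus strand. Plin1 (ENSMUSG00000030546) lies at chr7:79721164-79732776, Plin4 (ENSMUSG00000002831) at chr17:56100591-56109803 and Cidec (ENSMUSG00000030278) at chr6:113424634-113435760, all on the minus strand. Fabp4 (ENSMUSG00000062515) is at chr3:10204088-10208576 on the minus strand, and Lpl (ENSMUSG00000015568) at chr8:68880491-68907448 and Pparg (ENSMUSG00000000440) at chr6:115361221-115490401 are on the plus strand. Only Plin4 overlapped another gene, Hdgfrp2 on the opposite strand. The strand setting of the counting is not given in the sources used here, so reads of these overlapping genes may not be separable.

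The first question was whether the genes rose and fell together from library to library. Of the other 9 genes, 8 had a positive slope on Adipoq once the group was in the model, and 7 had an unadjusted p under 0.05 (edgeR quasi-likelihood test over 30 libraries). Of the 16059 genes tested, exactly 3 passed after Benjamini-Hochberg adjustment over all of them (0.0187%), and all 3 were fat cell genes: Cfd, Lep and Cidec. A doubling of Adipoq went with a rise of 1.19 ± 0.19 (SE) log2 units in Lep (adjusted p = 0.0053, edgeR). It went with 0.78 ± 0.12 in Cfd (adjusted p = 0.0053) and 0.75 ± 0.13 in Cidec (adjusted p = 0.0082).

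The next 4 genes followed Adipoq less tightly. The slopes were 0.69 ± 0.20 for Retn (edgeR, n = 30, unadjusted p = 0.0015), 0.67 ± 0.22 for Plin1 (p = 0.0043), 0.30 ± 0.081 for Fabp4 (p = 0.00093) and 0.24 ± 0.061 for Lpl (p = 0.00038), and none of the 4 passed adjustment (0.676 for Lpl, 0.781 for the others). A positive slope with an unadjusted p under 0.05 was found in 3.22% of all genes tested. Plin4 and Pparg did not follow Adipoq: their slopes were 0.024 ± 0.059 (n = 30, p = 0.68) and -0.048 ± 0.046 (p = 0.31). Adipoq itself rested on few counts, so its counting error enters every slope.

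The 3 adjusted calls rested in part on single libraries. Without CD M 2, which had 19 counts of Adipoq and 104 of Cfd, 0 of the 3 passed: the adjusted p was 0.057 for Lep and Cfd and 0.089 for Cidec. Lep was also lost without HFD F 1, its highest library (adjusted p = 0.071), and Cidec without HFD M 6 (adjusted p = 0.073). Without the 6 libraries high in squamous markers only Cfd passed (0.78 ± 0.12, adjusted p = 0.012, edgeR, with 0.00595% of genes called), with Cidec at 0.74 ± 0.13 (adjusted p = 0.074) and Lep at 1.15 ± 0.25 (adjusted p = 0.185). The slopes moved little over the 30 omissions, from 1.08 to 1.35 for Lep, from 0.71 to 0.86 for Cfd and from 0.71 to 0.81 for Cidec. Without the group term 1 gene passed, and with Plin1 in place of Adipoq 2 of the 9 fat cell genes passed among 72 genes in all.

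**Figure D1:**
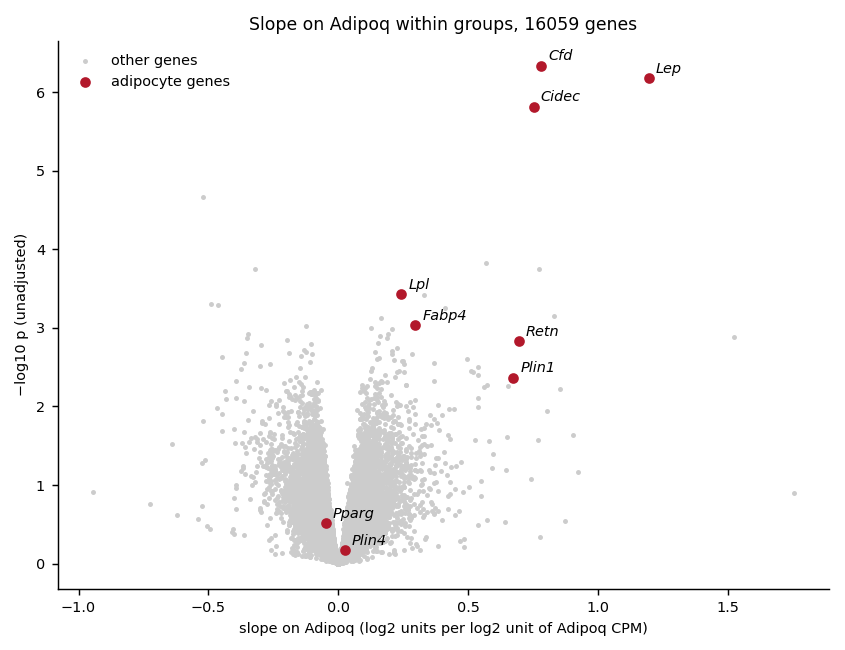
Slope on Adipoq (x axis, log2 units per log2 unit of Adipoq CPM, group in the model) against −log10 of the unadjusted p (y axis) for 16059 genes over 30 libraries. Red points are the 9 fat cell genes other than Adipoq. Lep, Cfd and Cidec stand at the top right, and Plin4 and Pparg near 0.

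Correlation described the same pattern. After subtraction of group means, Pearson's r with Adipoq over the 30 libraries (log2 CPM) was 0.76 for Lep, 0.75 for Cidec and 0.74 for Cfd. Among 16534 genes with a mean of at least 0.5 CPM these were the 3 highest values. Retn ranked 6 (0.65), Lpl 10 (0.62), Fabp4 17 (0.58) and Plin1 184 (0.46), whereas Plin4 ranked 5865 (0.096) and Pparg 14239 (-0.24). Within the separate groups of 6 libraries, the r of Lep, Cidec, Cfd, Lpl, Retn, Plin1 and Fabp4 was positive in 5 of 5 groups, with Cidec between 0.71 and 0.83 and Fabp4 between 0.10 and 0.79. That of Pparg was positive in 1 group. On the log2 TPM scale the order at the lower end changed, with r within groups of 0.25 for Plin1, 0.27 for Plin4 and 0.022 for Pparg.

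Over all 30 libraries without centring, r was 0.73 for Cidec (rho 0.74, both permutation p = 2e-05), 0.61 for Lep (permutation p = 0.00025, rho 0.59, p = 0.00085) and 0.57 for Cfd (permutation p = 0.0011, rho 0.67, p = 9e-05). It was 0.54 for Retn (permutation p = 0.0025), 0.51 for Fabp4 (p = 0.0041), 0.45 for Plin1 (p = 0.012) and 0.43 for Lpl (p = 0.017), with rho of 0.48, 0.51, 0.41 and 0.54. Plin4 had an r of -0.011 (permutation p = 0.955) and Pparg one of -0.21 (p = 0.256). These are 9 relations with unadjusted two-sided p-values, and all genes of a library share its depth and composition. Leaving out CD M 3 and CD M 5, the libraries farthest from the Adipoq median (0 and 1 counts), gave r of 0.74 for Cidec, 0.54 for Cfd, 0.50 for Lep, 0.46 for Fabp4, 0.58 for Lpl, 0.39 for Retn and 0.39 for Plin1.

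**Figure D2:**
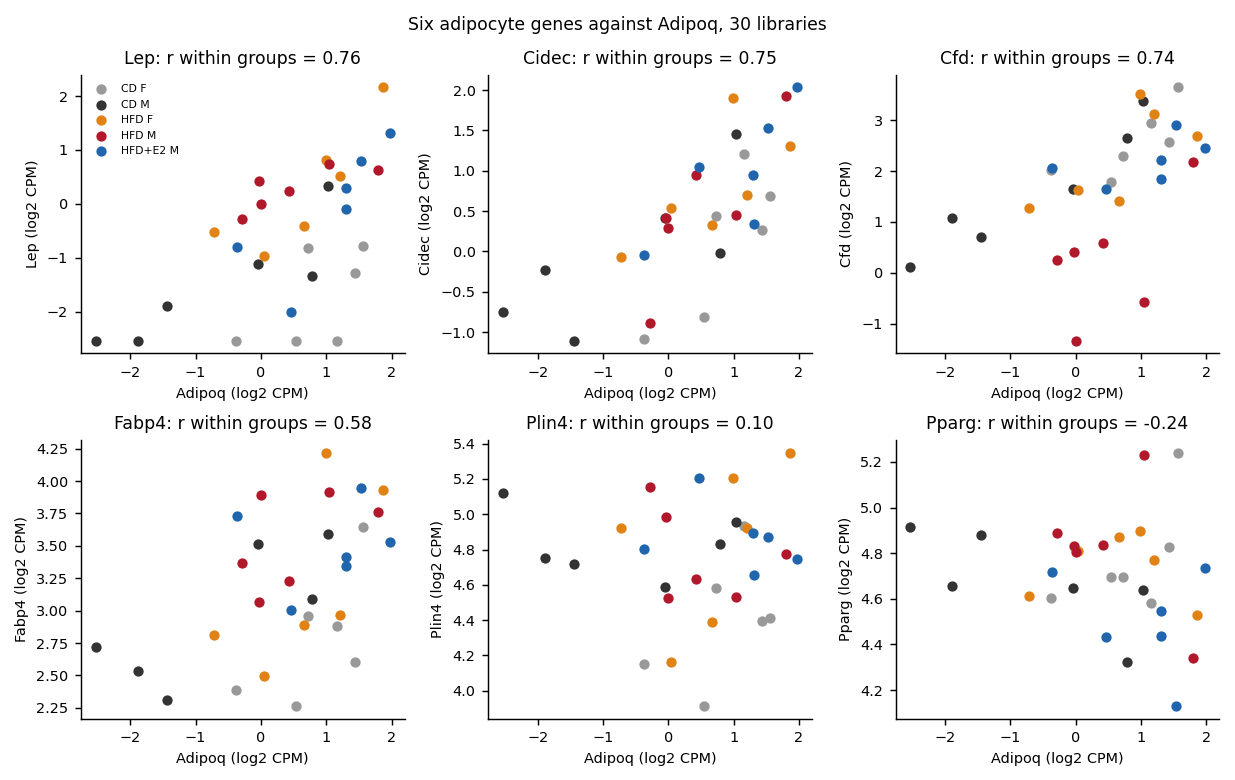
Level of 6 fat cell genes (y axes, log2 CPM) against Adipoq (x axes, log2 CPM), 1 point per library, coloured by group. Lep, Cidec, Cfd and Fabp4 rise with Adipoq, with the HFD M libraries low for Cfd and the CD F libraries low for Lep, and Plin4 and Pparg show no rise.

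Among the 10 genes themselves, 37 of the 45 pairs had a positive r within groups, with a median of 0.41. For the 28 pairs without Plin4 and Pparg the median was 0.57 and all 28 were positive (0.15 to 0.81), a subset chosen after the values were seen. The tightest pair was Plin1 with Cfd (0.81). Plin4 was positive with 8 of the other 9 genes, with a median r of 0.21, and its highest values were with Cfd (0.35), Fabp4 (0.34) and Cidec (0.30). Pparg was positive with 1 of the other 9, and its median r was -0.15.

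The scarcest genes were also the most variable. The biological coefficient of variation within groups was 0.77 for Lep, 0.74 for Plin1, 0.64 for Adipoq and Retn, 0.63 for Cfd and 0.55 for Cidec, against a median of 0.19 over 16060 genes. Between 97.4% and 98.8% of all genes had a lower value than each of these 6. The trend over genes of their own abundance stood at 0.29 (Cfd) to 0.37 (Plin1, Retn, Lep), so all 6 lay above it. Fabp4 (0.32, above 85.1% of genes) and Lpl (0.25, above 69.5%) were closer to the bulk. Plin4 (0.20) and Pparg (0.16) had 53.1% and 30.3% of genes below them, and the trend at the abundance of either was 0.19.

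Depth and mitochondrial share were set beside these levels. Within groups, r between Adipoq and the log2 total counts was -0.084, and between Adipoq and the mitochondrial share -0.28. For the other genes r with depth lay between -0.18 (Retn) and 0.15 (Fabp4), and r with the mitochondrial share between -0.27 (Lpl) and 0.042 (Fabp4) except for Pparg (0.42). The part of the mitochondrial share in the results was not tested.

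Other lists of cell type markers were set against Adipoq in the same way. The 40 genes of a wider adipocyte program, enzymes and regulators of lipid storage, had 35 tested members, of which 11 had a positive slope with an unadjusted p under 0.05 and 0 a negative one. Over all 16059 genes tested, 517 (3.22%) had such a positive slope and 500 a negative one. edgeR called 0 of the 35 after adjustment, where 0.0187% of all genes passed. Their median slope was 0.085, against 0.0021 over all genes tested. Thrsp, a lipogenic nuclear protein, had the steepest slope (0.77 ± 0.18, n = 30, p = 0.00018), followed by Tusc5 (Trarg1, a regulator of glucose transporter traffic; 0.57 ± 0.19), Car3 (a carbonic anhydrase abundant in fat and muscle; 0.53 ± 0.22) and Scd1 (the fatty acid desaturase; 0.37 ± 0.11). Dgat2, the last enzyme of triglyceride synthesis, had a slope of 0.25 ± 0.080 and hormone-sensitive lipase, Lipe, 0.21 ± 0.078. Levels over the list were uneven. Fasn (151 CPM on average), Scd1 (82.2) and Acly (435) were far above Adipoq (1.58). Other genes of the list were below it, such as Thrsp (0.79), Adig (0.27) and Mrap (0.17). Plin2, Pnpla2 and Acsl1 had slopes of 0.037, -0.034 and -0.00039.

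**Figure D3:**
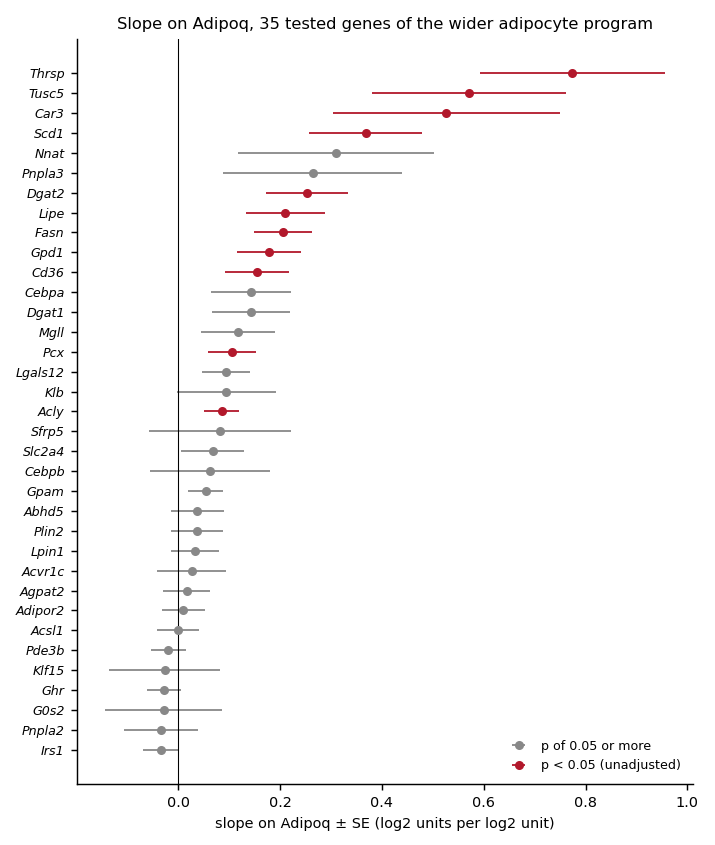
Slope on Adipoq with its SE (x axis, log2 units per log2 unit) for the 35 tested genes of the wider adipocyte program (y axis), group in the model, 30 libraries. Thrsp, Tusc5, Car3 and Scd1 have the steepest slopes, and the 11 red points have an unadjusted p under 0.05.

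The white adipocyte markers (Adipoq, Plin1, Cidec, Lep, Adig and Lgals12) summed to between 10.2 and 29.8 CPM per library, most of it Lgals12 (14.6 CPM on average), whose slope on Adipoq was 0.094 ± 0.047 (n = 30, p = 0.055). Their sums ran from 15.05 to 25.3 CPM in CD F, 10.2 to 22.1 in CD M, 17.9 to 27.5 in HFD F, 12.7 to 29.8 in HFD M and 13.4 to 28.05 in HFD+E2 M, so the groups overlapped. Of the brown adipocyte markers, Ucp1, the uncoupling protein, had 1 count in 30 libraries, and 2 of 6 genes were tested, with Dio2 rising with Adipoq (0.83 ± 0.22, unadjusted p = 0.0007) and Cox8b not. Of 5 tested genes of adipose stroma, 1 had p under 0.05 (1017 of 16059 over all genes), Cd34 (0.12 ± 0.051, n = 30, p = 0.021). Pdgfra, Pi16, Ly6a and Dpp4 did not reach it.

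Mesothelium covers the outside of the gut and the mesentery. Its 8 markers were low and uneven: Gpm6a had 743 counts over 30 libraries, Upk1b 141, Msln 125, Muc16 56, Bnc1 50, Wt1 23, Lrrn4 4 and Upk3b 3. Gpm6a, the only tested gene of the 8, had a slope of -0.0081 (n = 30, p = 0.94), and 1 gene cannot show whether mesothelial RNA followed Adipoq. The summed mesothelial level was 1.18 to 6.33 CPM. Of the exocrine pancreas genes, Cpa1 had 5 counts in all, Pnlip 18 and Cel 15, while Cela1 averaged 174 CPM and had a slope of 0.18 (n = 30, p = 0.041). No gene of the endothelium (7 tested), macrophages (6), smooth muscle (6), skeletal muscle (6), B cells (6), squamous epithelium (6) or colon epithelium (7) lists had an unadjusted p under 0.05. Over all genes tested 1017 of 16059 did, so few or none would be expected in lists this short. The 6 B cell genes all had positive slopes, with a median of 0.36 and a lowest p of 0.196, from Fcer2a. The part of these other cell types in the results was not tested. Whether the co-varying RNA came from fat attached to the colon was not tested either, since no library of fat alone was analysed here.

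Relatives of the members were read as a check on gene assignment. Retnlb, the resistin-like protein of goblet cells, had 3 counts in 30 libraries, and Fabp1 had 0 in every library, which allows up to 3 counts in each. Fabp2 (14 to 63 counts) had a slope of 0.15 on Adipoq (n = 30, p = 0.19) and Fabp5 (10 to 916 counts) one of 0.11 (p = 0.71). The level of Fabp5, a carrier abundant in squamous epithelium, was far from even, with 46 to 916 counts in HFD F and 14 to 45 in HFD+E2 M. It reached 77 CPM in HFD F 1, 73.7 in HFD F 3 and 61.6 in HFD F 4, against 3.98, 8.8 and 4.23 in HFD F 2, 5 and 6.

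The 10 genes outside the list with the highest r with Adipoq within groups (30 libraries) were Phpt1 (0.68), Sema3g (0.67), Mars (0.64), Mybl2 (0.64), Itfg2 (0.63), Scarb1 (0.61), Xkr8 (0.61), Cad (0.61), Thrsp (0.60) and Ptgs1 (0.59). All had lower values than Lep, Cidec and Cfd, and their adjusted p-values for the slope (edgeR) were 0.415 or more.

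The second question was whether the levels differed with diet, sex or estradiol. edgeR called 0 of the tested fat cell genes after adjustment in each of the 5 comparisons, and DESeq2 called 1 (Lep in HFD F against CD F). Few genes of any kind passed adjustment. With edgeR the shares of all genes were 0.0199% in HFD F against CD F, 0% in HFD M against CD M and 0.00666% with estradiol. They were 2.92% in CD F against CD M and 0.0988% in HFD F against HFD M. With DESeq2 the shares were 0.801%, 0.0938%, 0.197%, 2.78% and 0.179%, in the same order. At an unadjusted p under 0.05 edgeR gave 1 gene in HFD F against CD F, 2 in HFD M against CD M, 2 in HFD+E2 M against HFD M and 1 in each comparison of the sexes. The shares of all genes at that p were 5.68%, 6.03%, 10.2%, 14.8% (CD F against CD M) and 5.09% (HFD F against HFD M). By the threshold that the study used (an unadjusted p under 0.05 with a log2 fold change above 0.4 in size), 1 or 2 genes were called in each. The shares of all genes at that threshold were 3.67%, 2.9%, 5.87%, 9.15% and 3.09%, in the same order of comparisons. Without the libraries high in squamous markers that threshold gave 1 gene in HFD F against CD F (Cfd), 1 in HFD M against CD M (Lep), 1 with estradiol (Cfd) and 3 in HFD F against HFD M (Plin4, Lep and Fabp4), where 2.36%, 3.64%, 3.45% and 2.14% of all genes met it. Low counts kept several of the 10 out of a comparison, so 8, 6, 8, 8 and 9 of them were tested in HFD F against CD F, HFD M against CD M, HFD+E2 M against HFD M, CD F against CD M and HFD F against HFD M.

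**Figure D4:**
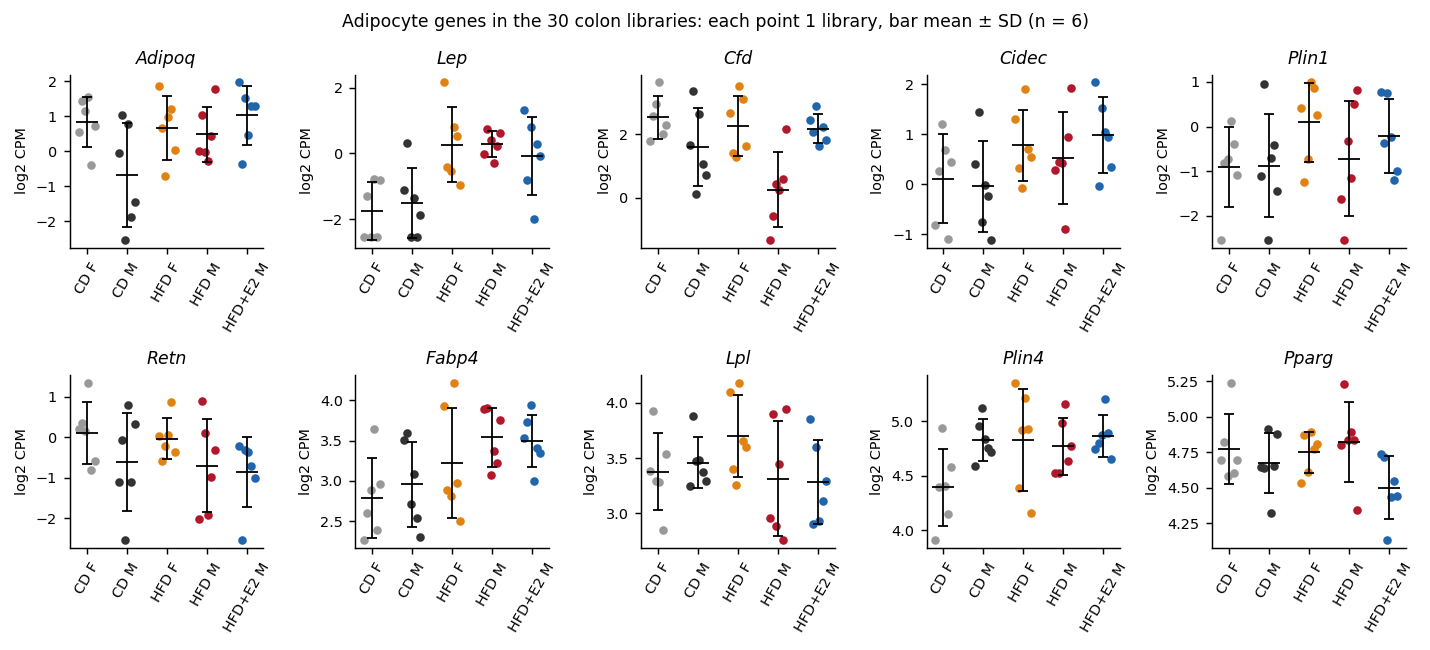
Level (y axes, log2 CPM) of the 10 fat cell genes in the 5 groups (x axes), with 1 point per library and bars at the mean ± SD (n = 6). Lep sits low in both control diet groups, Cfd low in HFD M, and Pparg stays between 17.4 and 35.8 CPM.

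Lep, the satiety hormone whose transcription rises with fat cell size, differed most with diet. In CD F it had 0, 1.5 and 4 counts (lowest, median, highest), with 3 of 6 libraries at 0, and in HFD F 4, 10 and 56. In CD M it had 0, 2 and 11 counts, and in HFD M 7, 12.5 and 15. Thus 6 of 6 HFD libraries were above the median of the control group in either sex. The groups overlapped in females at 4 counts, seen in CD F 4, CD F 6 and HFD F 6, and in males through CD M 2 with 11 counts. The mean difference in log2 CPM was 2.01 in females (exact permutation test, two-sided, p = 0.0065) and 1.80 in males (exact p = 0.0087), where the smallest p that 6 against 6 allows is 0.00216 and 50 such tests were made, unadjusted.

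Lep was too low for the main model in both diet comparisons. Without the filter on low counts, edgeR gave a log2 fold change of 3.0 ± 0.82 in females (adjusted p = 0.423) and 1.94 ± 0.60 in males (adjusted p = 0.732). DESeq2 called it in females (3.07 ± 0.82, adjusted p = 0.021, where it called 0.801% of genes) and not in males (1.99 ± 0.64, adjusted p = 0.329, with 0.0938% called), where Lep did meet the threshold of the study with DESeq2, as 2.18% of genes did. Without the libraries high in squamous markers the difference in males was 1.96 ± 0.66 (edgeR, adjusted p = 0.775), past that threshold. In females the HFD F libraries that remained, HFD F 2 and 6, had 7 and 4 counts, and the gene was too low for that fit. HFD+E2 M had 1, 9.5 and 27 counts of Lep, and the log2 fold change against HFD M was -0.041 ± 0.47 (edgeR, adjusted p = 0.979). HFD F against HFD M gave -1.21 ± 0.55 (adjusted p = 1.0) without the squamous-high libraries, past the threshold of the study and of the opposite sign to the fit of all 12.

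Since Lep followed Adipoq within groups, the comparisons were repeated in 1 model of all 30 libraries with Adipoq as a covariate, an analysis chosen after the data were seen. The covariate is the measured level of Adipoq, with 0 to 47 counts per library, and the SE does not include its counting error. This limit holds for every fit with Adipoq as a covariate. There Lep was 3.0 ± 0.55 log2 units higher in HFD F than in CD F at equal measured Adipoq (adjusted p = 0.018, edgeR, with 0.461% of genes called). In males the difference was 1.35 ± 0.54 (adjusted p = 0.679, with 0.0249% called). Adipoq itself had 6, 19.5 and 32 counts in CD F and 5, 19.5 and 45 in HFD F, a log2 fold change of -0.067 ± 0.42 (adjusted p = 0.999). In the same model Lep was -1.83 ± 0.70 in CD F against CD M (adjusted p = 0.28, with 1.02% called) and -0.997 ± 0.46 with estradiol (adjusted p = 0.303, with 0.0187% called).

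Cfd, the serine protease that starts the alternative complement pathway, was low in one group. In HFD M it had 3, 12 and 41 counts, against 13, 30.5 and 104 in CD M, 26, 57.5 and 143 in HFD F and 31, 45.5 and 126 in HFD+E2 M. CD F had 33, 60.5 and 120. All 6 HFD F libraries and all 6 HFD+E2 M libraries were above the HFD M median, and in each case the groups overlapped through HFD M 6, the library with 41 counts. HFD M 6 also had the lowest depth (8667177 counts) and a mitochondrial share of 27.85%, against 35.98% to 37.99% in HFD M 1 to 5, and the share was 30.59% to 35.78% in HFD F and 26.1% to 36.59% in HFD+E2 M. The part of the mitochondrial share in the level of Cfd was not tested.

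Cfd was called at the threshold of the study in 3 comparisons and in 0 after adjustment. It was 1.73 ± 0.47 log2 units higher in HFD+E2 M than in HFD M (3.31-fold; edgeR p = 0.0021, adjusted p = 0.454; exact permutation p = 0.0087), where 5.87% of genes met the threshold and 0.00666% the adjusted p. It was 2.02 ± 0.61 higher in HFD F than in HFD M (4.07-fold; edgeR p = 0.0055, adjusted p = 0.781; exact permutation p = 0.011), with 3.09% and 0.0988% of genes called. It was 1.49 ± 0.68 lower, a log2 fold change of -1.49, in HFD M than in CD M (edgeR p = 0.048, adjusted p = 0.823; exact permutation p = 0.084), with 2.9% and 0% called. DESeq2 gave adjusted p-values of 0.056, 0.097 and 0.782 for the 3, with 0.197%, 0.179% and 0.0938% of genes called. These comparisons share the HFD M libraries, so they are not independent of each other. Without the libraries high in squamous markers Cfd kept the call with estradiol (1.44 ± 0.51, adjusted p = 0.837, edgeR) and lost it in HFD F against HFD M (0.66 ± 0.81, adjusted p = 1.0) and in HFD M against CD M (-1.22 ± 0.78, adjusted p = 0.91). In HFD F against CD F it gained one (-1.20 ± 0.48, adjusted p = 1.0), on 2 HFD F libraries.

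Leaving out HFD M 6 raised the estradiol difference to 2.45 log2 units, with an adjusted p of 0.037, and the other omissions kept the call (down to 1.49). The difference between the sexes on HFD kept the call in 12 of 12 omissions (1.69 to 2.74). The diet difference in males was lost without CD M 1, CD M 2, CD M 4 or any of HFD M 1 to 5. Without CD M 2 it was -0.96, without each of the other 7 it was -1.56 to -1.25, and over the 12 omissions it ran from -2.21 to -0.96. With Adipoq in the model of all 30 libraries, Cfd was -2.16 ± 0.40 in HFD M against CD M (edgeR, adjusted p = 0.043) and 1.93 ± 0.37 in HFD F against HFD M (adjusted p = 0.013, with 0.174% of genes called). It was 1.47 ± 0.38 in HFD+E2 M against HFD M (adjusted p = 0.179). In females the log2 fold change of Cfd with diet was -0.13 ± 0.43 (adjusted p = 0.999), and the interaction of sex and diet, tested over 24 libraries, was 1.36 ± 0.85 (adjusted p = 0.757), so a difference between the sexes in the diet effect was not shown. Without HFD M 6 the interaction was 2.07 ± 0.83, past the threshold of the study (adjusted p = 0.589). CD F against CD M gave 0.67 ± 0.52 for Cfd (adjusted p = 0.616), and 1.19 ± 0.46, past that threshold, without CD M 2 (adjusted p = 0.259).

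Adipoq had its lowest values in CD M, where the libraries had 0, 6.5 and 21 counts and 3 of them 2 counts or fewer. It was 1.25 ± 0.61 log2 units higher in CD F than in CD M (edgeR p = 0.059, adjusted p = 0.365; exact permutation p = 0.054), and 5 of 6 CD F libraries had more counts than the CD M median. It met the threshold of the study with DESeq2 (1.25 ± 0.64, adjusted p = 0.356, where 6.3% of genes met it), with all 30 libraries in 1 fit (1.25 ± 0.60, adjusted p = 0.372) and with the replicate block. In HFD M it had 7, 12.5 and 31 counts and in HFD+E2 M 6, 23.5 and 47, a log2 fold change of 0.62 ± 0.43 (adjusted p = 0.579). HFD F and HFD M differed by 0.28 ± 0.47 (adjusted p = 0.925), and by -0.38 ± 0.63 without the squamous-high libraries. HFD M against CD M was not tested in the main model and gave an exact permutation p of 0.117. Leaving out CD F 5, CD M 2 or CD M 4 brought the difference between the sexes on CD past the threshold of the study (1.42 to 1.68), as did leaving out HFD M 6 for estradiol (1.04).

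The droplet proteins gave fewer calls. Plin4, which coats nascent droplets, was 0.47 ± 0.21 log2 units higher in HFD F (16.8, 30.6 and 44.4 CPM) than in CD F (16.04, 20.9 and 30.5 CPM; edgeR p = 0.036, adjusted p = 0.813; exact permutation p = 0.115), where 3.67% of all genes met the threshold of the study and 0.0199% passed adjustment. The call was lost without CD F 1, 2, 4 or 5 or HFD F 1, 3, 4 or 5 (log2 fold change 0.36 to 0.47). Its 4 highest HFD F libraries, HFD F 1 (44.4 CPM), 4 (37.4), 3 (31.4) and 5 (29.8), were the 4 high in squamous markers, and HFD F 2 and 6 had 21.7 and 16.8 CPM. Without those 4 libraries the log2 fold change was -0.15 ± 0.23 (edgeR, adjusted p = 1.0), so the direction turned, and against HFD M it was -0.46 ± 0.21 (adjusted p = 1.0). Plin4 was lower in CD F than in CD M (24.8, 27.9 and 33.03 CPM), with a log2 fold change of -0.41 ± 0.15 (edgeR p = 0.015, adjusted p = 0.184; exact permutation p = 0.026), where 9.15% of genes met the threshold and 2.92% passed adjustment (2.78% with DESeq2). Without CD F 1, CD F 5, CD M 2 or CD M 3 the size fell below 0.4, and without CD F 3 the adjusted p was 0.045.

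The interaction of sex and diet was 0.52 ± 0.25 for Plin4 (edgeR, adjusted p = 0.733), the only one of the 10 genes past the threshold of the study, which 5.18% of genes met, and it was lost in 16 of 24 omissions of 1 library (down to 0.41) and was -0.052 ± 0.26 without the libraries high in squamous markers. edgeR called 0 of the 10 and 0% of all genes after adjustment. Cidec had 3 to 26 counts in each control diet library and 4 to 47 in the others. Its log2 fold changes were 0.70 ± 0.44 in females and 0.62 ± 0.51 in males on HFD against CD, 0.46 ± 0.44 with estradiol, 0.17 ± 0.50 for CD F against CD M and 0.24 ± 0.45 for HFD F against HFD M (edgeR, adjusted p = 0.677 or more). Leaving out CD F 3, CD M 2 or HFD M 6 brought the first 3 of these past the threshold (1.02, 1.12 and 0.90). Without the squamous-high libraries Cidec was -0.65 ± 0.55 in HFD F against HFD M, a change of sign. Plin1 passed the filter of the main model only in HFD F against HFD M (0.73 ± 0.63, adjusted p = 0.878), and was -0.46 ± 0.82 there without the squamous-high libraries. In HFD F against CD F its log2 fold change was 1.28 ± 0.59 with DESeq2 (adjusted p = 0.588, with 3.64% of genes past the threshold of the study) and 1.25 ± 0.53 with edgeR without the filter (adjusted p = 0.7), both past that threshold, and 1.26 ± 0.69 with all 30 libraries in 1 fit (adjusted p = 0.939), which was not. Its exact permutation p there was 0.087.

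Fabp4 and Lpl supply the cell with fatty acids. Fabp4 had 4.77, 7.43 and 11.7 CPM in CD M and 7.83, 11.9 and 14.5 CPM in HFD M, a log2 fold change of 0.55 ± 0.23 (edgeR p = 0.031, adjusted p = 0.82; exact permutation p = 0.056), with 6 of 6 HFD M libraries above the CD M median. The call was lost without CD M 3, 5 or 6 or HFD M 1, 2 or 6 (log2 fold change 0.43 to 0.50), and without HFD M 2 and 4, the males high in squamous markers, it was 0.49 ± 0.26 (adjusted p = 0.895). In females the difference was 0.53 ± 0.32 (adjusted p = 0.999), and it passed the threshold of the study without CD F 4 (0.75) or HFD F 6 (0.66), and with estradiol it was -0.047 ± 0.19 (adjusted p = 0.93). CD F against CD M gave -0.18 ± 0.26 (adjusted p = 0.822) and HFD F against HFD M -0.20 ± 0.29 (adjusted p = 0.914). Without the squamous-high libraries the diet difference in females was -0.15 ± 0.33 and that between the sexes on HFD -0.84 ± 0.32 (both adjusted p = 1.0, edgeR), the second past the threshold of the study. Lpl had log2 fold changes of 0.35 ± 0.19 in females on HFD (adjusted p = 0.968), -0.085 ± 0.21 in males, -0.058 ± 0.23 with estradiol, -0.058 ± 0.16 for CD F against CD M and 0.37 ± 0.23 for HFD F against HFD M (adjusted p = 0.872), none past the threshold. Lpl passed it in females without CD F 2 (0.48) or HFD F 3 (0.42), and between the sexes on HFD without HFD M 6 (0.51).

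Pparg was the steadiest gene. Its 30 libraries lay between 17.4 and 35.8 CPM. It was lower in HFD+E2 M (17.4, 22.9 and 26.9 CPM) than in HFD M (21.8, 26.5 and 35.8 CPM) by a log2 fold change of -0.33 ± 0.14 (edgeR p = 0.032, adjusted p = 0.476; exact permutation p = 0.052), under the size that the study required. Without HFD M 6 it reached that size (-0.41), and it did so on the log2 TPM scale, with -0.51 after adding 0.1 and -0.48 after adding 1 (exact permutation p = 0.022 for each). Without HFD M 2 and 4 it was -0.20 ± 0.15 (edgeR, adjusted p = 0.837). The other 4 comparisons gave -0.017 ± 0.12, 0.16 ± 0.13, 0.10 ± 0.13 and -0.075 ± 0.13 (adjusted p = 0.778 or more). Retn, tested in 2 comparisons, gave -0.27 ± 0.41 in HFD F against CD F (adjusted p = 0.999) and 0.66 ± 0.59 in CD F against CD M (adjusted p = 0.678), on 0 to 23 counts per library.

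**Figure D5:**
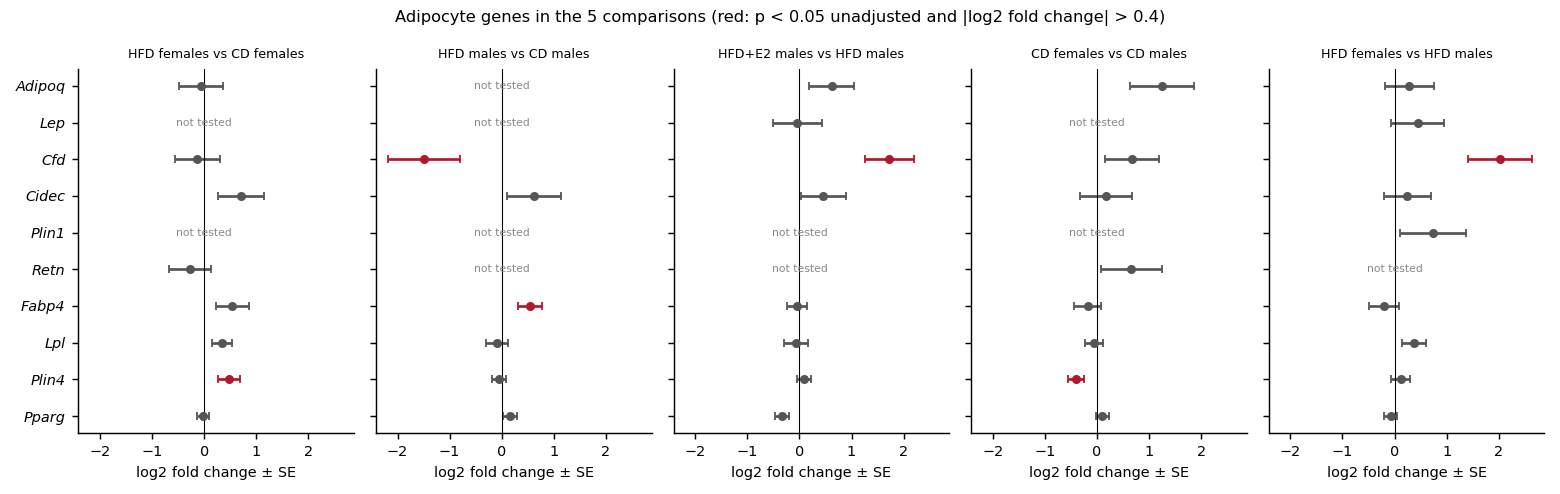
Log2 fold change with its SE (x axes, edgeR) for the 10 fat cell genes (y axis) in the 5 comparisons of 12 libraries. Red points meet the threshold of the study, Cfd in 3 comparisons, Plin4 in 2 and Fabp4 in 1, and genes too low for a comparison are marked.

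The wider adipocyte program was read beside the members in each comparison. By the threshold of the study, which 3.67% of all genes met, 4 of 31 genes rose and 1 fell in HFD F against CD F, with a median log2 fold change of 0.028 against 0.0012 over all genes. Dgat2 (0.78 ± 0.17), the fatty acid carrier Cd36 (0.60 ± 0.17), Car3 (1.21 ± 0.50) and Mgll (monoglyceride lipase, 0.53 ± 0.20) were the 4, and the receptor Acvr1c (-0.44 ± 0.16) fell. Without the 4 HFD F libraries high in squamous markers Dgat2 (0.57 ± 0.23) and Cd36 (0.56 ± 0.21) kept the call, and Car3 (-0.46 ± 0.46), Mgll (-0.14 ± 0.16) and Acvr1c (-0.30 ± 0.24) lost it, Car3 and Mgll with a change of sign. In HFD M against CD M, where 2.9% of all genes met the threshold, 2 of 31 rose, Car3 (2.07 ± 0.89) and Klb (0.46 ± 0.20), and with estradiol (5.87%) 1 of 32, G0s2 (0.67 ± 0.32). Without HFD M 2 and 4, the males high in squamous markers, Car3 was 0.24 ± 0.52 and Klb 0.58 ± 0.21. With estradiol G0s2 was 0.56 ± 0.37 in that fit, so only Klb kept its call. HFD M 2 also had the most skeletal muscle RNA (257 CPM of its markers), while CD M 5 (164.8 CPM) stayed in the fit. The part of skeletal muscle in the level of Car3 was not tested. In CD F against CD M, 2 rose and 3 fell of 31, where 9.15% of all genes met the threshold and 2.92% passed adjustment. The higher ones were Acvr1c (0.72 ± 0.21, adjusted p = 0.076, edgeR) and Klb (0.64 ± 0.23, adjusted p = 0.169). The lower ones were Cd36 (-0.62 ± 0.16, adjusted p = 0.041, edgeR), Mgll (-0.57 ± 0.096, adjusted p = 0.0046) and Slc2a4 (-0.57 ± 0.16, adjusted p = 0.06). In HFD F against HFD M 0 of 31 met the threshold, which 3.09% of all genes met. Without the squamous-high libraries 1 of 34 rose there (Scd1) and 2 fell (Slc2a4 and Tusc5), where 2.14% of all genes met it. Scd1 also gained a downward call in the smaller fits of HFD F against CD F and HFD M against CD M. There 2.36% and 3.64% of all genes met the threshold.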

How the data were processed

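Colon RNA of 30 mice was sequenced from ribosomal RNA-depleted stranded libraries. The authors mapped reads to GRCm38 (mm10) with STAR, after Trim Galore per the labels, and deposited raw gene counts from featureCounts and, per library, TPM values from StringTie. Versions and the strand setting of these tools are not given in the sources used here. Groups came from the sample titles. The methods state 6 biological replicates per group. The 10 genes, the marker lists and the tests were chosen with earlier results of these data known.

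Each comparison used its 12 libraries: edgeR 4.0.16 (R 4.3.3), filterByExpr, TMM normalization, robust quasi-likelihood test, Benjamini-Hochberg adjustment over all genes tested. Calls are an adjusted p under 0.05, or the threshold of the study (p under 0.05 and a log2 fold change above 0.4 in size). The slope on Adipoq used log2 CPM (prior count 2) with the group in the model over 30 libraries. The interaction of sex and diet used 24 libraries. Exact two-sided permutation tests compared log2 CPM, and correlations used 100000 permutations. The scripts were tested on simulated data. All 10 genes are named in every comparison; list genes were named in order of slope among those with p under 0.05, and the 10 others by r within groups. Some list genes outside that order are named after their values were seen.

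The results were recomputed with DESeq2 (version 1.42.0 here; the study also used this package), with its size factors in edgeR, without the filter, with genes of at least 10 counts throughout, with the 30 libraries fitted jointly, with a replicate block, with each library omitted, and on log2(TPM + 0.1) and log2(TPM + 1). A joint fit with Adipoq, and fits without the 6 libraries over 100 CPM of squamous markers, were added after seeing the data. Depth limits precision: a count of 0 allows up to 3 counts, and such limits cover counting error only. Columns of the count table were matched to libraries by name, and in 30 of 30 the counts had their highest correlation with the TPM of that library.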

Additional observations from a re-analysis of the deposited data

Results flagged for a closer look

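Within each group of 6 libraries, the highest and lowest log2 CPM of each gene were compared with the nearest other library by Dixon's test (critical value 0.625). Of 50 groups checked, 3 libraries stood apart, and chance flags about 1 in 20. Retn was at 0 CPM (0 counts) in HFD+E2 M 2, below the other 5 libraries of that group by 0.667 of the range. Lpl stood at 14.2 CPM (14.21, 148 counts) in CD M 2, above the others by 0.634 of the range, and this is the library without which the slopes of Lep, Cfd and Cidec on Adipoq no longer passed adjustment. Pparg stood at 35.4 CPM (35.43, 366 counts) in CD F 4, above the others by 0.632 of the range.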

How the results depend on the processing

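Apart from the omissions of 1 library, 336 log2 fold changes and 38 slopes kept their direction and their side of the adjusted threshold, and 25 fold changes and 1 slope changed sign. A further 3 fold changes gained a call and 5 slopes lost one. On the log2 TPM scale, r with Adipoq within groups was 0.25 for Plin1, 0.27 for Plin4 and 0.022 for Pparg. The cause of the changes was not tested.

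The number of fat cell genes past the adjusted p was 0 in each comparison. It was 1 with DESeq2 and 1 with Adipoq in the fit of all 30 libraries (chosen after seeing the data) in HFD F against CD F, 1 with Adipoq in the fit in HFD M against CD M and in HFD F against HFD M, and 1 with the replicate block in CD F against CD M (Plin4). The next counts use the threshold of the study, with the calls over all genes tested in brackets. HFD F against CD F gave 1 gene (553 of 15061). It gave 3 with DESeq2 (1018 of 27955), 2 without the filter (1496 of 27997) and 2 with all libraries in 1 fit (705 of 16060). It gave 0 with the replicate block (506 of 15061) and 5 with Adipoq (712 of 16060). HFD M against CD M gave 2 (434 of 14991), and 3 with DESeq2 (603 of 27704) or with Adipoq (571 of 16060). It gave 1 with at least 10 counts in every library (356 of 13383) and with the replicate block (558 of 14991). It also gave 1 without the libraries over 100 CPM of squamous markers, chosen after seeing the data (563 of 15464). HFD+E2 M against HFD M gave 1 (881 of 15010), 0 with at least 10 counts (788 of 13223) and 2 with Adipoq (1305 of 16060). CD F against CD M gave 1 (1366 of 14922) and 4 with Adipoq (1195 of 16060). It gave 2 with DESeq2 (1745 of 27677), all libraries in 1 fit (1363 of 16060) or the replicate block (1538 of 14922). HFD F against HFD M gave 1 (469 of 15179), 0 with at least 10 counts (361 of 13367) and 3 without the squamous-high libraries (337 of 15756). The slope on Adipoq called 3 genes, 1 without the group term and 1 without the squamous-high libraries. After subtraction of group means, same-numbered libraries of the 2 groups of a comparison correlated from -0.30 to 0.57. The best match carried the same number for 0 of 6 libraries in HFD F against CD F and 1 in HFD F against HFD M. It did so for 4 in HFD M against CD M, 3 with estradiol and 4 in CD F against CD M. Whether the replicate numbers mark something that the libraries share was not tested. The block raised the adjusted calls over all genes in CD F against CD M from 435 to 941 and left the 3 slopes called.

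Signs changed on the TPM scale with 0.1 or 1 added for Pparg (CD F against CD M, -0.0186 and -0.0173; HFD F against CD F, 0.108 and 0.102) and Cidec (CD F against CD M, -0.0193 and -0.0151), and with 0.1 added for Lep (HFD F against HFD M, -0.037) and Cidec (estradiol, -0.0356). With Adipoq in the fit they changed for Retn (-0.25), Cidec (-0.821) and Cfd (-0.183) in CD F against CD M, Lep (-0.186) in HFD F against HFD M and Cidec (-0.134) in HFD M against CD M, and without the group term for the slope of Plin4 (-6.22e-05). Without the squamous-high libraries they changed for Pparg (0.0577), Plin4 (-0.149) and Fabp4 (-0.154) in HFD F against CD F, for Pparg (0.122), Plin4 (-0.462), Adipoq (-0.384), Cidec (-0.65), Plin1 (-0.461) and Lep (-1.21) in HFD F against HFD M, for Lpl (0.126) and Fabp4 (0.00061) with estradiol and for the interaction of Plin4 (-0.0515).

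Leaving out each library in turn gave 0 to 2 genes at the threshold of the study in HFD F against CD F, HFD M against CD M and CD F against CD M, 1 to 4 with estradiol and 1 to 2 in HFD F against HFD M. After adjustment it gave 0 to 1 with estradiol and in CD F against CD M, and 0 to 3 for the slopes. Values that crossed 0 were those of Pparg (-0.0039 to 0.154), Lpl (-0.197 to 0.0381) and Cidec (-0.158 to 0.668) in CD F against CD M. In HFD F against CD F they were Pparg (-0.0627 to 0.0832), Retn (-0.548 to 0.105), Adipoq (-0.415 to 0.126) and Cfd (-0.469 to 0.165). In HFD F against HFD M they were Pparg (-0.156 to 0.0156), Adipoq (-0.0704 to 0.69), Cidec (-0.101 to 0.677) and Lep (-0.304 to 0.641). In HFD M against CD M they were Plin4 (-0.149 to 0.00956) and Lpl (-0.226 to 0.013). With estradiol they were Lpl (-0.183 to 0.0895), Lep (-0.414 to 0.221) and Fabp4 (-0.152 to 0.0486), and the slope of Plin4 ran from -0.00584 to 0.0652.

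Over all genes, the adjusted calls in HFD F against CD F were 3, 224 with DESeq2 and 86 with all libraries in 1 fit, those in HFD M against CD M 0 and 26 with DESeq2, those with estradiol 1 and 54, those in CD F against CD M 435, 770 and 941 with the block, and those in HFD F against HFD M 15 and 50. The slope on Adipoq called 3 genes, and 8 without the filter. Genes with counts near 0 (Plin1, Retn, Lep and Adipoq in CD M) limit what any of these fits could show.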
